A study of Mus musculus with 9 samples.

Results

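Cultures of mouse myoblasts after 2 days of differentiation were compared with cycling myoblasts, using 6 of the 9 arrays of the series: the 3 titled as cycling myoblasts and the 3 titled as myotubes at 2 days. The other 3 arrays hold myotubes at 5 days, and their values are given only beside some genes. The cells were primary myoblasts of skeletal muscle, the mice were Balb/c and wild type, and no group carried an allele or agent that the others lacked. Titles put the myotubes in a differentiating medium, while the growth protocol lists Ham's F10 with 20% FBS and bFGF at 4 ng/ml for each sample, so only the titles give the medium of the myotubes. Whether the triplicates were separate cultures or animals is not stated, so p-values measure a spread between arrays that may be technical.

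Values are log2 levels from RMA, a method that corrects background, equalises the distributions of arrays and summarises the probes of a gene. Per the series' design text, RMA had been run on each set of replicates by itself, here each time point. Each difference is therefore given as a log2 fold change (log2FC, day 2 minus cycling myoblasts) on 2 scales. One uses the values as deposited, and the other, the common scale, follows quantile normalization of all 9 arrays together, and a log2FC with no scale named is the deposited one. Time point and RMA run coincide, so they cannot be told apart on either scale. A gene is said to have risen or fallen if limma's adjusted p was under 0.05 and the change at least 2-fold in the same direction on both scales. Of 16582 genes tested, 1002 rose (6.04%) and 1394 fell (8.41%), 14.4% in all. On the deposited values alone 1060 rose (6.39%) and 1994 fell (12%), and on the common scale alone 1281 (7.73%) and 1402 (8.45%). Over all genes the median log2FC moved from -0.014 (deposited) to 0.087 (common), a shift of 0.101. The size limit carries these calls, because identical replicate values were frequent and the adjusted p alone passed for 80.2% of genes. Among called genes limma's adjusted p reached at most 0.0014 on the deposited values and 0.00097 on the common scale. The 2 groups did not overlap in any of the 2396 called genes, nor in 95.8% of all genes tested. Separate groups, or a change present on every array, are therefore the rule here and set no gene named below apart from the others. Low side is written where all 3 arrays of the lower group had the gene no higher than their own 30th percentile, and under median where the lower group's mean did not reach the median of its arrays. Low side changes were 109 rises and 137 falls, and 188 and 279 more were under median, so their sizes are not measured on both sides. The SD over 3 arrays was at most 0.523 in either group of a called gene.

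Skeletal muscle forms when proliferating myoblasts leave the cell cycle, begin to express muscle genes under the MyoD and MEF2 families of transcription factors, and fuse into multinucleate myotubes. Fibroblast growth factor and serum keep myoblasts dividing through receptor tyrosine kinases and the ERK kinases. Leaving that state is known to involve not only contractile proteins but also the cell's adhesions, membrane, fuels, chaperones and signalling enzymes, which the gene groups below follow.

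The identity of the cells was checked with markers of 8 cell types. All 8 myogenic markers were measured, and their mean level lay between 9.63 and 9.79 on the myoblast arrays and between 9.79 and 9.80 at day 2. Among them 3 rose (37.5%) and 2 fell (25%), beside 6.04% and 8.41% of all genes, and 3 were not called. Myog, a myogenic factor, read 8.93, 9.46 and 9.07 on the myoblast arrays and 11.02 on each of the day 2 arrays (log2FC 1.87, common 2.04). Pax7, a satellite cell factor, read 7.86, 7.89 and 7.89 on the myoblast arrays and 5.73 on each of the day 2 arrays (log2FC -2.15, common -1.87). The first rose and the second fell, with no overlap between groups. All 8 tested endothelial markers went uncalled by limma at 2-fold, with a mean level of 3.43 to 3.45 in myoblasts and 3.69 to 3.71 at day 2. At an unadjusted p under 0.05, 6 were higher and 2 lower, but even the adjusted p alone passed for 80.2% of all genes. In both groups 7 of the 8 lay under the array median. Of 9 macrophage and leukocyte markers, 1 was called, Itgam (low side, log2FC 1.96, common 1.86), and the panel's mean level was 3.46 in myoblasts and 3.78 to 3.79 at day 2. The adipocyte and erythroid panels had no call among 4 and 2 tested. Among 7 fibroblast markers tested 0 rose, 1 fell, Col3a1 (log2FC -2.87, common -2.67), and 6 were not called. At an unadjusted limma p under 0.05, 1 was higher and 4 lower. In both groups 3 of the 7 lay under the array median, and Dcn, Lum and Dpt lay below the filter. The mean of the 7 fibroblast markers was 5.58 to 5.60 in myoblasts and 4.97 to 4.99 at day 2. The mean of 8 smooth muscle and pericyte markers was 6.19 to 6.22 in myoblasts and 5.39 to 5.40 at day 2. Of these, Rgs5 (low side, log2FC -4.02, common -3.73) and Notch3 (log2FC -1.49, common -1.13) fell and 6 were not called. At an unadjusted limma p under 0.05, 5 of the 8 were lower and 3 higher. Of the 4 Schwann cell markers tested, S100b (low side, log2FC 1.43, common 1.28) and Erbb3 (log2FC 2.93, common 3.18) rose, and the panel's mean level went from 4.37 to 4.41 up to 5.49 to 5.5. The part of such cells in the results was not tested. In RNA from whole cultures, fewer cells of a type and less RNA per cell cannot be told apart.

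Regulatory RNA genes were measured through their hairpins, so a probe set shows the microRNA gene and not the mature arm. A mature sequence is printed for 10 of the 13 microRNA genes that were called, to show which of them share a seed, from RefSeq with assembly GRCm38.p6 coordinates. Mir1a-1, Mir133a-1 and Mir133a-2 are named only. Capitals mark the seed, bases 2 to 8. In the table used, 49 of the 56 genes of the microRNA list were matched by symbol.
miR-206-3p: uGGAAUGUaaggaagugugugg
miR-17-5p: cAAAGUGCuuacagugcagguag
miR-20a-5p: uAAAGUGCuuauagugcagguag
miR-18a-5p: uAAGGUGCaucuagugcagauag
miR-19a-3p: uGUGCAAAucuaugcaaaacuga
miR-19b-3p: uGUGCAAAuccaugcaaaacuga
miR-15a-5p: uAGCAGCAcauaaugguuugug
miR-15b-5p: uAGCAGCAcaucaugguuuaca
miR-29a-3p: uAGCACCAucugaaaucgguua
miR-221-3p: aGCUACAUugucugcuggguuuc
Of these genes Mir206 (chr1:20679055-20679076 for the arm shown) rose and the other 9 fell. The arms of Mir17 and Mir20a share the seed AAAGUGC, those of Mir19a and Mir19b-1 the seed GUGCAAA, and those of Mir15a and Mir15b the seed AGCAGCA. A shared seed did not mean a shared call. Mir93 and Mir106b, with 5p arms of the seed AAAGUGC, were tested and not called. Neither was Mir222, whose 3p arm has the seed of miR-221-3p.

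Promoters of 4 genes that rose and 2 that fell are printed as examples, chosen for holding the motifs discussed with the shares below. Each is the 250 bases before the start that RefSeq lists first, 5′ to 3′ on the gene's strand, in assembly GRCm38.p6. Capitals mark CAGCTG, the E-box form that MyoD family factors bind, the MEF2 motif, and TTTNNCGC, the motif of E2F factors. A motif on the opposite strand appears as its reverse complement.
Klhl41, chr2:69669870-69670119, plus strand: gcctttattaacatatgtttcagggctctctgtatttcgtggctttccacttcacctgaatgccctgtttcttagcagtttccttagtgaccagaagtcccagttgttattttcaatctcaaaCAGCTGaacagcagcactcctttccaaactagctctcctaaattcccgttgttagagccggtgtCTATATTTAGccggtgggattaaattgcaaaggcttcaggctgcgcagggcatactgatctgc
Srpk3, chrX:73774155-73774404, plus strand: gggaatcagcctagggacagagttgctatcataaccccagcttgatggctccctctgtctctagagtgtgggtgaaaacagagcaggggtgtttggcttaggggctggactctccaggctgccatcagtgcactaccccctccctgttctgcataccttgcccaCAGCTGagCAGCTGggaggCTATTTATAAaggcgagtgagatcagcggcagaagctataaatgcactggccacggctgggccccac
Fbxo40, chr16:36990468-36990717, minus strand: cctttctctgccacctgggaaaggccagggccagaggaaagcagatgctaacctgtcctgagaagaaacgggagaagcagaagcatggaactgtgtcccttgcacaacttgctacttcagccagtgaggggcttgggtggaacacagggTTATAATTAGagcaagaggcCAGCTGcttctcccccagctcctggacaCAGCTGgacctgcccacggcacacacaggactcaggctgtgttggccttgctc
Ppp1r3a, chr6:14755275-14755524, minus strand: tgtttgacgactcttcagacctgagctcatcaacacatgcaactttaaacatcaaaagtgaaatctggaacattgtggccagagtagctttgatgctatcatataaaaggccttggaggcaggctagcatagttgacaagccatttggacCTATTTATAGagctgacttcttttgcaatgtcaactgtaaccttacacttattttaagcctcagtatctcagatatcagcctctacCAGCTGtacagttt
Chek2, chr5:110839733-110839982, plus strand: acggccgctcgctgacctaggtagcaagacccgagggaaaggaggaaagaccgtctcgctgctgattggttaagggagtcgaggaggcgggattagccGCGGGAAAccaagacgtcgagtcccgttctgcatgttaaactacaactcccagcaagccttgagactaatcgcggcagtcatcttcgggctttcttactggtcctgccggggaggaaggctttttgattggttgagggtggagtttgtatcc
Topbp1, chr9:103305077-103305326, plus strand: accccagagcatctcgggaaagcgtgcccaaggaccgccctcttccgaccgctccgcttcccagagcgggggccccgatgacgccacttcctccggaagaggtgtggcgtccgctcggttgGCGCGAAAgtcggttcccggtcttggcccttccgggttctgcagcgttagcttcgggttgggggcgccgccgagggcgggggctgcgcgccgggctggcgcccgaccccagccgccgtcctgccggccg
In these 6 windows the MEF2 motif lay 63 bases before the start of Klhl41, 67 before Srpk3, 101 before Fbxo40 and 100 before Ppp1r3a, and TTTNNCGC lay 152 bases before Chek2 and 129 before Topbp1. No 2 motifs shared a base.

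Outside the sarcomere, triad, mitosis and replication genes, which were set aside, the 20 largest rises included a fatty acid carrier, a circulating hormone and a cGMP-dependent kinase. Fabp3, a fatty acid carrier of muscle, read 5.23, 5.65 and 5.65 on the myoblast arrays and 9.94, 9.92 and 10.08 on the day 2 arrays (log2FC 4.47, common 4.72). Fgf21, a circulating metabolic hormone, read 5.68, 5.86 and 5.79 on the myoblast arrays and 9.84, 9.84 and 9.86 on the day 2 arrays (log2FC 4.07, common 4.34). Prkg1, a cGMP-dependent kinase, read 4.26 on each of the myoblast arrays and 8.75, 8.75 and 8.73 on the day 2 arrays (under median, log2FC 4.49, common 4.43). All 3 were higher on each day 2 array than on any myoblast array, and the rise of Fabp3 came to 22.2-fold as deposited. Bex1 (log2FC 4.46, common 4.77), Zdbf2 (log2FC 4.44, common 4.40) and Hjv (log2FC 3.97, common 4.23), a co-receptor for BMPs, were also among the 20 largest, as was Asb2 (log2FC 4.04, common 4.23). Fsd2 (low side, log2FC 4.97, common 4.74), Cd36 (under median, log2FC 4.61, common 4.38), Cmbl (low side, log2FC 4.39, common 4.18), Gcnt1 (under median, log2FC 4.10, common 3.90), P2ry10b (low side, log2FC 4.04, common 3.85), 2310002L09Rik (low side, log2FC 3.99, common 3.82) and Ppp1r3a (low side, log2FC 3.99, common 3.79) rose from levels under the array median. The others were Cav3 (log2FC 4.36, common 4.65), Itgb1bp2 (log2FC 4.26, common 4.49), Ablim3 (log2FC 4.10, common 4.06), Popdc2 (log2FC 4.03, common 4.28), Cox8b (log2FC 4.15, common 4.44) and Cox6a2 (log2FC 3.84, common 4.11).

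Outside the genes set aside, which included Neil3, Stmn1, Chek1 and Tk1, the 20 largest falls included hormone and neuropeptide precursors, a macrophage growth factor and a chemokine with its receptor. Sct, the precursor of secretin, read 10.21 on each of the myoblast arrays and 4.90 on each of the day 2 arrays (log2FC -5.31, common -5.03). Mest, an imprinted gene, read 11.86, 11.96 and 11.91 on the myoblast arrays and 7.15 on each of the day 2 arrays (log2FC -4.76, common -4.79). Csf1, the macrophage growth factor, read 9.49, 9.51 and 9.51 on the myoblast arrays and 5.53 on each of the day 2 arrays (log2FC -3.98, common -3.74). Each day 2 value lay below every myoblast value. The neuropeptide precursor Gal (under median, log2FC -4.27, common -4.03), Car8 (under median, log2FC -4.26, common -4.01), Dpysl3 (log2FC -4.21, common -3.95), Trp53i11 (log2FC -4.35, common -4.11), Slc43a3 (under median, log2FC -4.56, common -4.35) and Rdh5 (log2FC -4.04, common -3.80) fell too. Both Cxcl12 (log2FC -3.73, common -3.45) and its receptor Cxcr4 (log2FC -3.70, common -3.48) fell, as did the adhesion molecule Vcam1 (log2FC -3.68, common -3.46) and the G1 cyclin Ccnd1 (log2FC -3.96, common -3.94). The remaining genes among the 20 largest falls were D17H6S56E-5 (under median, log2FC -5.85, common -5.62), Olfr1372-ps1 (low side, log2FC -4.97, common -4.73), Myl9 (log2FC -4.02, common -3.78), Tafa5 (log2FC -3.79, common -3.52), Adgrg3 (under median, log2FC -3.74, common -3.46) and Rad54l (under median, log2FC -3.71, common -3.43), a recombination repair gene that was not among those set aside, besides Rgs5.

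**Figure D1:**
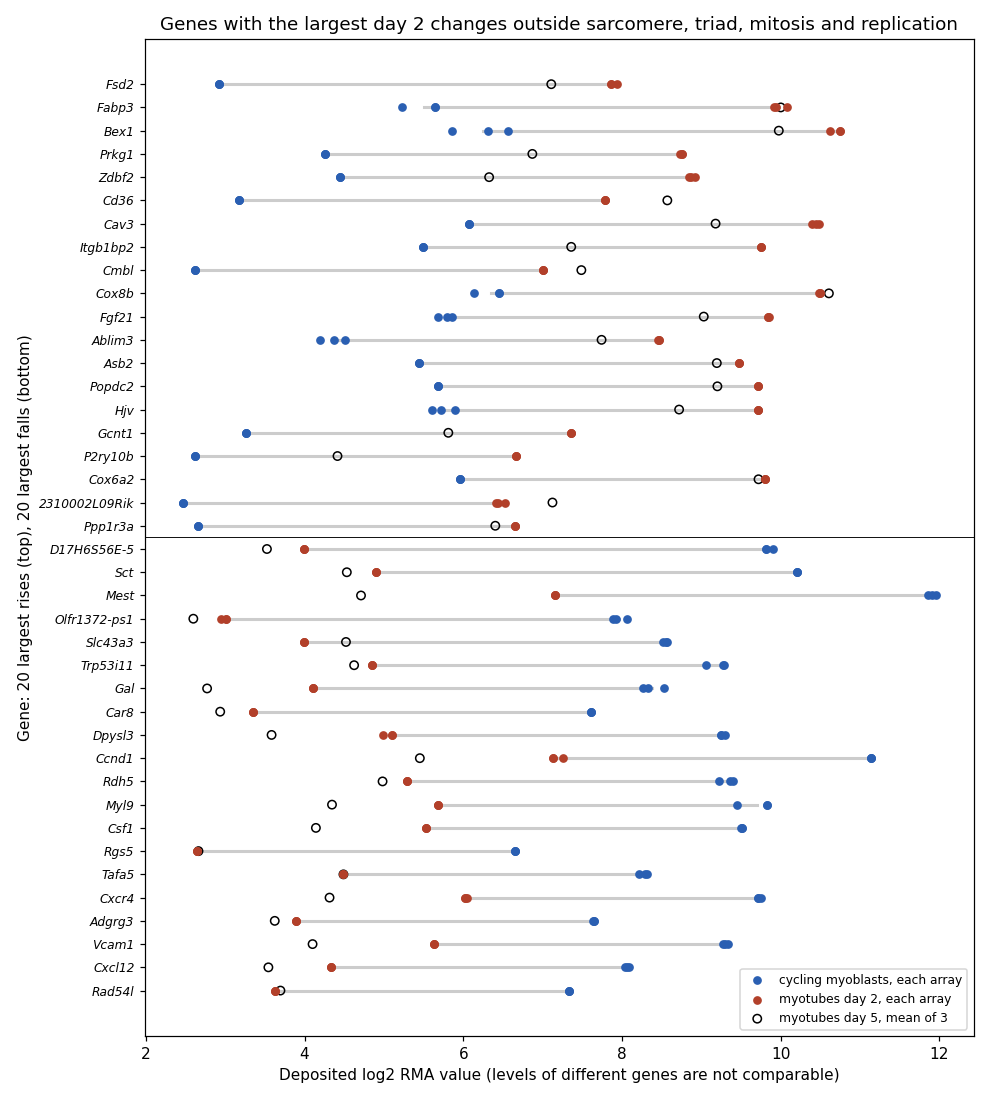
Deposited log2 values (x axis) of the 20 genes with the largest rise (upper block) and the 20 with the largest fall (lower block) by the smaller of the 2 scales, outside the sarcomere, triad, mitosis and replication lists. Blue points are the 3 myoblast arrays, red points the 3 day 2 arrays and open circles the day 5 mean. The groups lie apart in each gene, as in 95.8% of all genes tested.

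**Figure D2:**
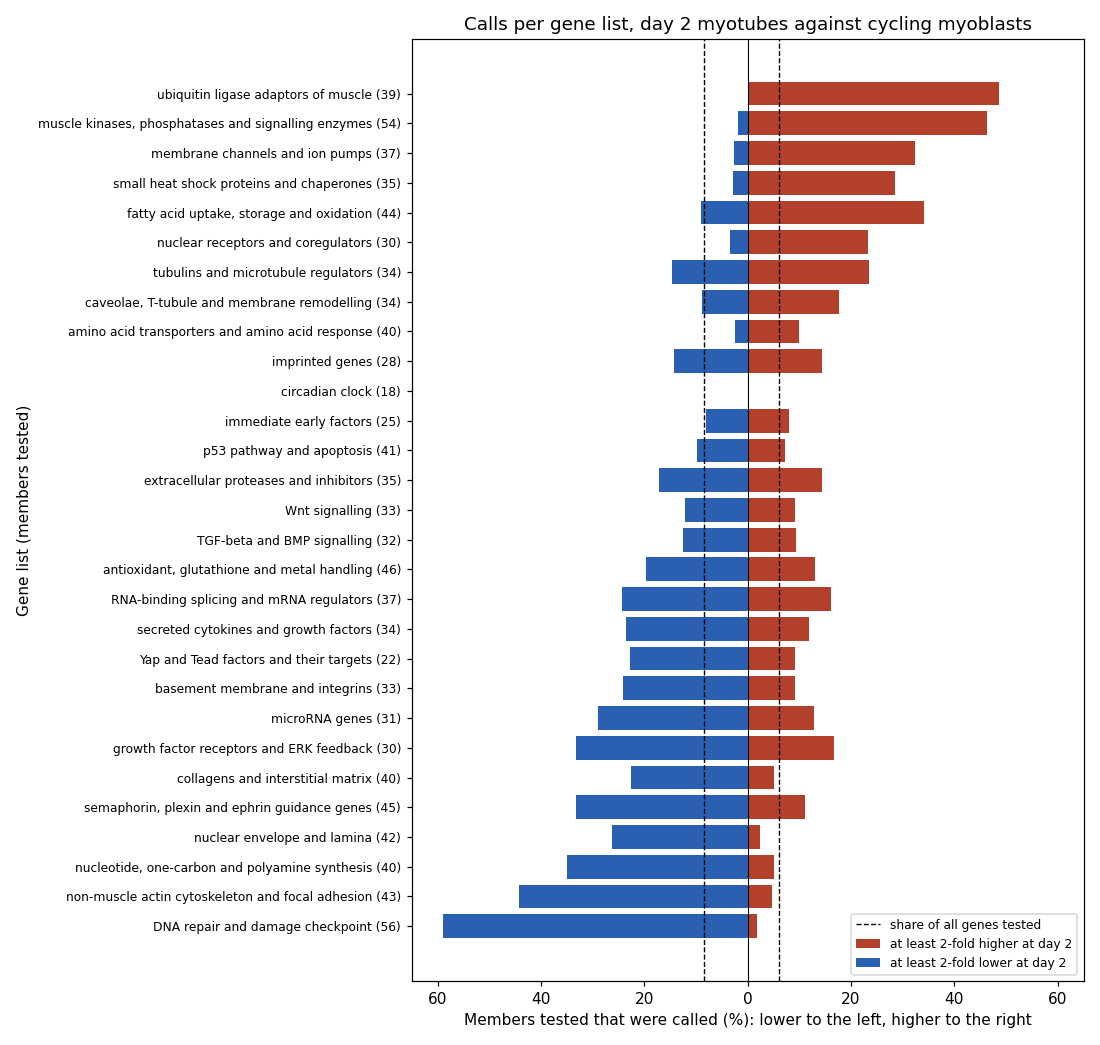
Share of tested members (x axis, percent) called at least 2-fold higher (red, right) or lower (blue, left) in each of 29 gene lists, with the number of members tested in brackets. Dashed lines mark 6.04% and 8.41%, the shares of all genes, and the ubiquitin ligase adaptors and DNA repair genes lie at the ends.

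Receptors for growth factors and the feedback inhibitors of ERK signalling fell more often than they rose. Of this list 5 of 30 members tested rose and 10 fell, against 6.04% and 8.41% of all genes, and its median log2FC was -0.56 (deposited) and -0.39 (common). Dusp4, an ERK phosphatase, read 8.39, 8.53 and 8.53 on the myoblast arrays and 5.39 on each of the day 2 arrays (log2FC -3.09, common -2.84). Fgfr4, a fibroblast growth factor receptor, read 8.87, 9.01 and 9.00 on the myoblast arrays and 6.0 on each of the day 2 arrays (log2FC -2.96, common -2.77). Met, the receptor of hepatocyte growth factor, read 9.37, 9.44 and 9.37 on the myoblast arrays and 6.63, 6.63 and 6.62 on the day 2 arrays (log2FC -2.77, common -2.62). All 3 were lower on every day 2 array. Egfr (log2FC -1.92, common -1.54), the epidermal growth factor receptor, Sdc1 (log2FC -2.13, common -1.80), a syndecan, and the inhibitors Spred2 (log2FC -1.77, common -1.59), Dusp6 (log2FC -1.43, common -1.30), Spry2 (log2FC -1.45, common -1.26) and Spred1 (log2FC -1.24, common -1.04) fell, and so did the ERK-induced factor Etv4 (log2FC -1.75, common -1.42). Other receptors rose. Erbb3, a neuregulin receptor, read 6.45, 6.62 and 6.45 on the myoblast arrays and 9.43, 9.45 and 9.45 on the day 2 arrays (log2FC 2.93, common 3.18). Erbb2 (log2FC 1.12, common 1.37), its partner, Insr (log2FC 1.14, common 1.39), the insulin receptor, and Gpc1 (log2FC 1.15, common 1.29), a glypican, rose by less. Spry1 (log2FC 1.48, common 1.70) went opposite to Spry2. Fgfr1 (log2FC -0.51, common -0.34) and Igf1r (log2FC -0.32, common -0.11) did not reach 2-fold.

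Immediate early transcription factors, which serum induces within minutes, were called about as often as other genes. Of these 2 of 25 members tested rose and 2 fell, near the 6.04% and 8.41% of all genes. Fosl1 (log2FC -2.72, common -2.37) and Jun (log2FC -1.23, common -1.11), both AP-1 subunits, fell, and Nr4a1 (log2FC 1.48, common 1.63) and Egr2 (under median, log2FC 1.35, common 1.36) rose. Fos (log2FC 0.11, common 0.39) and Srf (log2FC -0.21, common 0.01) were not called, and Egr1 (log2FC 0.88, common 1.13) passed 2-fold on the common scale alone, where 5 members were higher in place of 2.

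Secreted cytokines and growth factors split. In the list 4 of 34 members tested rose (11.8%) and 8 fell (23.5%), beside 6.04% and 8.41% of all genes. Fgf7, the keratinocyte growth factor, read 4.47 on each of the myoblast arrays and 6.85 on each of the day 2 arrays (log2FC 2.39, common 2.42). Its day 2 values, like those of Fgf21 above, lay over all myoblast values. Il15 (low side, log2FC 1.61, common 1.49) and Ccl2 (low side, log2FC 1.21, common 1.08) also rose. Besides Csf1 and Cxcl12, Il34 (log2FC -2.33, common -1.96), the second ligand of the Csf1 receptor, Pgf (log2FC -2.0, common -1.70) and Vegfc (log2FC -1.61, common -1.24), both of the VEGF family, Cxcl10 (low side, log2FC -1.91, common -1.83), Il33 (under median, log2FC -2.0, common -1.66) and Il18 (low side, log2FC -1.66, common -1.56) fell. Vegfa (log2FC -1.0, common -0.88) was lower by less than 2-fold on the common scale. Of the 43 genes of the list, 6 had no probe set of their own and 3 lay below the filter.

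Of the TGF-beta and BMP signalling list 3 of 32 members tested rose and 4 fell, shares of 9.38% and 12.5% beside 6.04% and 8.41% of all genes. Tgfb3, one of the TGF-beta ligands, read 6.24, 6.41 and 6.24 on the myoblast arrays and 9.27 on each of the day 2 arrays (log2FC 2.97, common 3.20). It rose, whereas Tgfb1 (log2FC -0.25, common 0.07) and Tgfb2 (log2FC 0.58, common 0.78) were not called. Grem1 (log2FC 1.46, common 1.68), a BMP antagonist, and Gdf11 (log2FC 1.18, common 1.43), a relative of myostatin, rose. Ltbp1 (log2FC -2.31, common -2.18), which holds latent TGF-beta in the matrix, Smad7 (log2FC -1.79, common -1.41) and Skil (log2FC -1.14, common -1.01), inhibitors of the pathway, and the protease Bmp1 (log2FC -1.62, common -1.25) fell. None of the receptors Tgfbr1, Bmpr1a and Bmpr2 was called, at log2FC -0.23, common -0.01 for Tgfbr1.

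For Wnt signalling 3 of 33 members tested rose and 4 fell, shares of 9.09% and 12.1% beside 6.04% and 8.41% of all genes. The nuclear effectors Lef1 (log2FC -2.15, common -1.78) and Tcf7l2 (log2FC -1.79, common -1.46), the R-spondin receptor Lgr6 (log2FC -2.46, common -2.11) and the secreted Sfrp2 (log2FC -1.74, common -1.39) fell, whereas Fzd9 (log2FC 1.49, common 1.60), Wnt9a (log2FC 1.07, common 1.32) and Rspo3 (under median, log2FC 1.13, common 1.14) rose. Axin2 (log2FC 0.92, common 0.85), a common readout of the pathway, was not called. Among Yap and Tead factors and their targets 2 of 22 members tested rose (9.09%) and 5 fell (22.7%), beside the same 6.04% and 8.41%. Ccn2, a matricellular protein, read 5.02 on each of the myoblast arrays and 7.51 on each of the day 2 arrays (log2FC 2.49, common 2.63). It rose, as did Tead4 (log2FC 2.05, common 2.27). In contrast Ccn1 (log2FC -1.71, common -1.59), the closest relative of Ccn2 in the list, and Tead2 (log2FC -1.30, common -1.17) fell. On the common scale alone 4 members were higher in place of 2.

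Matrix genes that passed the test were lower more often than higher. Of collagens and interstitial matrix 2 of 40 members tested rose (5%) and 9 fell (22.5%), beside 6.04% and 8.41% of all genes. Their median log2FC was -0.25 (deposited) and -0.11 (common). Tnc, tenascin C of the matrix, read 8.82, 8.93 and 8.90 on the myoblast arrays and 5.58 on each of the day 2 arrays (log2FC -3.30, common -3.07). All day 2 values were lower. Fbln1 (log2FC -2.97, common -2.67), Fn1 (log2FC -1.91, common -1.76), fibronectin, Vcan (log2FC -2.15, common -1.79), versican, Loxl3 (log2FC -2.36, common -2.02) and Emilin1 (log2FC -2.07, common -1.70) fell as well. The fibrillar collagen genes differed, since Col3a1 and Col5a2 (log2FC -1.36, common -1.22) fell and Col1a1 (log2FC -0.08, common 0.23) and Col1a2 (log2FC -0.30, common 0.04) were not called. Ogn, a small proteoglycan, read 6.48, 6.69 and 6.55 on the myoblast arrays and 8.86, 8.86 and 8.89 on the day 2 arrays (log2FC 2.30, common 2.52). It rose, as did Fbln5 (log2FC 1.14, common 1.27).

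In the basement membrane and integrin list 3 of 33 members tested rose (9.09%) and 8 fell (24.2%), beside 6.04% and 8.41% of all genes. Itgb4, an integrin subunit of hemidesmosomes, read 9.22, 9.27 and 9.22 on the myoblast arrays and 5.91 on each of the day 2 arrays (log2FC -3.33, common -3.13). It fell on every day 2 array. Lamb1 (log2FC -2.43, common -2.27), Col4a1 (log2FC -2.19, common -1.88), Col4a2 (log2FC -1.53, common -1.16), Nid1 (log2FC -1.77, common -1.39), Lama5 (log2FC -1.41, common -1.06) and Col18a1 (log2FC -2.27, common -2.04), structural parts of the basement membrane, fell, while Lama2 (log2FC -0.33, common -0.12) and Lamb2 (log2FC 1.0, common 1.18), chains of the muscle laminin, were not called. Itgb1bp2, melusin, which binds the beta 1 integrin in muscle, read 5.5 on each of the myoblast arrays and 9.75 on each of the day 2 arrays (log2FC 4.26, common 4.49). It rose. Itgb6 (log2FC 2.28, common 2.5) and Itga4 (log2FC 1.16, common 1.30) rose, and Itgb1 (log2FC 0.16, common 0.35) and Itga7 (log2FC 0.53, common 0.70), the muscle laminin receptor, did not reach 2-fold. On the common scale alone 6 members were higher in place of 3.

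Extracellular proteases also went both ways, and 5 of 35 members tested rose (14.3%) and 6 fell (17.1%), beside 6.04% and 8.41% of all genes. The Adamts family split within itself. Adamts5, a protease of aggrecan and versican, read 4.84, 5.13 and 5.03 on the myoblast arrays and 7.67 on each of the day 2 arrays (log2FC 2.67, common 2.79). With it Adamts1 (log2FC 2.54, common 2.74) and Adamts20 (under median, log2FC 2.25, common 2.17) rose, but Adamts4 (log2FC -1.34, common -1.04) fell. Mmp14 (log2FC -2.22, common -1.98), a membrane-bound collagenase, Reck (under median, log2FC -1.65, common -1.47), its inhibitor, and Plaur (log2FC -1.28, common -1.10), the urokinase receptor, fell. Timp3 (under median, log2FC 1.12, common 1.12) and Adam19 (log2FC 1.18, common 1.42) rose.

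Guidance molecules, which steer migrating cells and axons, fell more often than they rose. Here 5 of 45 members tested rose (11.1%) and 15 fell (33.3%), beside 6.04% and 8.41% of all genes. Their median log2FC was -0.33 (deposited) and -0.14 (common). Efnb2, a membrane ephrin, read 8.30, 8.44 and 8.44 on the myoblast arrays and 5.14 on each of the day 2 arrays (log2FC -3.26, common -2.97). Epha2, an ephrin receptor, read 9.25, 9.32 and 9.32 on the myoblast arrays and 6.75 on each of the day 2 arrays (log2FC -2.55, common -2.41). As in 95.8% of all genes tested, neither gene overlapped between groups. Robo1 (log2FC -2.60, common -2.32), the Slit receptor, Nrp1 (log2FC -1.85, common -1.48), a semaphorin co-receptor, Efna5 (under median, log2FC -2.05, common -1.73), Ephb4 (log2FC -1.64, common -1.27) and Plxna1 (log2FC -1.28, common -1.14) fell. The secreted class 3 semaphorins did not move together. Sema3e (log2FC -1.77, common -1.64) and Sema3a (log2FC -1.48, common -1.36) fell, and Sema3d (log2FC 1.98, common 2.05), Sema3b (log2FC 1.38, common 1.62) and Sema3c rose. Sema3c read 4.33, 4.46 and 4.38 on the myoblast arrays and 7.33 on each of the day 2 arrays (log2FC 2.94, common 2.93). The 2 groups were apart. Ephb3 (log2FC 1.34, common 1.58), an ephrin receptor, rose.

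Genes of the non-muscle actin cytoskeleton and focal adhesions fell at day 2 where they were called, with the exception of a cofilin and desmin. In this list 2 of 43 members tested rose (4.65%) and 19 fell (44.2%), beside 6.04% and 8.41% of all genes. This was the second largest share of falls after DNA repair among the 29 lists. Myl9, a regulatory light chain of non-muscle and smooth muscle myosin, read 9.45, 9.83 and 9.82 on the myoblast arrays and 5.68 on each of the day 2 arrays (log2FC -4.02, common -3.78). Flna, the actin crosslinker filamin A, read 10.68, 10.79 and 10.68 on the myoblast arrays and 7.65, 7.67 and 7.65 on the day 2 arrays (log2FC -3.06, common -2.95). Actb, beta actin, read 12.54, 12.62 and 12.59 on the myoblast arrays and 11.27 on each of the day 2 arrays (log2FC -1.31, common -1.55). These falls were present on every day 2 array. Tagln2 (log2FC -3.20, common -3.01), Fscn1 (log2FC -2.56, common -2.41), fascin, Cnn2 (log2FC -2.31, common -2.18), Tpm4 (log2FC -2.39, common -2.25), Zyx (log2FC -1.87, common -1.76), zyxin, and the myosin heavy chains Myh10 (log2FC -2.85, common -2.57) and Myh9 (log2FC -1.67, common -1.54) fell too, as did Diaph3 (under median, log2FC -3.18, common -2.90). Vcl (log2FC 0.48, common 0.59), Tln1 (log2FC -0.46, common -0.37) and Vim (log2FC -0.02, common -0.17) were not called. Cfl2 (log2FC 1.65, common 1.83), the muscle cofilin, rose while Cfl1 (log2FC -1.87, common -1.79), the non-muscle cofilin, fell, and Des (log2FC 1.27, common 1.48), desmin, was the other rise. The fall of Tpm3 (log2FC -1.89, common -1.82) depends on the probe set, since other probe sets of Tpm3 gave log2FC of 0.28, -0.77 and -0.35 as deposited.

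Microtubule genes were mixed, as 8 of 34 members tested rose (23.5%) and 5 fell (14.7%), beside 6.04% and 8.41% of all genes. The falls include Stmn1, one of the genes set aside above. Stmn1, a protein that destabilises microtubules, read 10.35, 10.43 and 10.44 on the myoblast arrays and 6.36 on each of the day 2 arrays (log2FC -4.05, common -3.86). It fell. Tubb5 (log2FC -1.60, common -1.57), a major beta tubulin, fell, and Kif1b (log2FC 1.46, common 1.66), a kinesin, and Map1lc3a (log2FC 1.31, common 1.56), an autophagy protein, rose. The rises were small: without myoblast replicate 1, 5 members rose in place of 8, and Tubb2b (log2FC 1.01, common 1.16), Tuba4a (log2FC 1.0, common 1.15) and Trim55 (log2FC 1.02, common 1.26) were the ones lost. With limma's treat test against a 2-fold change 1 was left. For Map4, a microtubule-associated protein, the probe set used gave log2FC 0.34, common 0.49, while another rose from a mean of 6.23 to 9.12 (log2FC 2.89, common 3.11).

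At the cell membrane, muscle proteins of caveolae and membrane repair rose, and 3 widely expressed caveola genes fell. Of this list 6 of 34 members tested rose (17.6%) and 3 fell (8.82%), beside 6.04% and 8.41% of all genes. Cavin4, the muscle cavin, read 7.89, 8.05 and 7.89 on the myoblast arrays and 11.12, 11.12 and 11.06 on the day 2 arrays (log2FC 3.15, common 3.38). Trim72, a membrane repair protein, read 6.59, 6.79 and 6.70 on the myoblast arrays and 9.73, 9.73 and 9.72 on the day 2 arrays (log2FC 3.03, common 3.30). Both were higher on each day 2 array. Popdc2 (log2FC 4.03, common 4.28), Pacsin3 (log2FC 2.95, common 3.22) and Bin1 (log2FC 1.16, common 1.38), which bends membranes into T-tubules, and Sptb (under median, log2FC 1.28, common 1.31) rose. Cav1 (log2FC -1.59, common -1.30), Cav2 (under median, log2FC -1.91, common -1.65) and Ehd2 (log2FC -1.36, common -1.20) fell. Cavin1 (log2FC 0.38, common 0.52), Dnm2 (log2FC 0.16, common 0.33) and Mtm1 (log2FC 0.60, common 0.67) were not called.

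Channels and ion pumps rose where they were called, with 1 exception. Here 12 of 37 members tested rose (32.4%) and 1 fell (2.7%), beside 6.04% and 8.41% of all genes. Kcnj2, an inward rectifier that helps set the resting potential of muscle, read 2.84 on each of the myoblast arrays and 6.47 on each of the day 2 arrays (low side, log2FC 3.63, common 3.44). Fxyd6, a subunit that tunes the sodium pump, read 7.08, 7.10 and 7.10 on the myoblast arrays and 9.53 on each of the day 2 arrays (log2FC 2.44, common 2.69). Both rose. Abcc9 (under median, log2FC 3.21, common 3.18), the sulfonylurea receptor of muscle potassium channels, Kcnn3 (log2FC 2.41, common 2.63), Fxyd1 (log2FC 2.24, common 2.35), P2rx5 (under median, log2FC 2.10, common 2.12) and Cacna2d1 (log2FC 2.08, common 2.30), a calcium channel subunit, rose. So did the sodium pump beta subunits Atp1b1 (log2FC 1.55, common 1.76) and Atp1b2 (under median, log2FC 1.5, common 1.56). Kcnn4 (log2FC -1.71, common -1.33), a calcium-activated potassium channel of proliferating cells, was the one fall. Clcn1 (log2FC 0.70, common 0.76), the chloride channel of mature fibres, was not called. Of the 50 genes of the list, 11 had no probe set of their own and 2 lay below the filter.

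In the nuclear envelope 1 of 42 members tested rose (2.38%) and 11 fell (26.2%), beside 6.04% and 8.41% of all genes. Their median log2FC was -0.72 (deposited) and -0.48 (common). Lmnb1, lamin B1, read 8.17, 8.18 and 8.17 on the myoblast arrays and 5.23 on each of the day 2 arrays (log2FC -2.94, common -2.65). With it Lmnb2 (log2FC -1.5, common -1.29) and Lbr (log2FC -1.65, common -1.53), the lamin B receptor, fell. Lmna (log2FC -0.75, common -0.61), lamin A/C, was lower by less than 2-fold. Aaas (log2FC -2.57, common -2.40), Ndc1 (log2FC -2.25, common -1.92), Nup205 (log2FC -1.64, common -1.47), Nup133 (log2FC -1.64, common -1.46), Nup160 (log2FC -1.47, common -1.27), Nup43 (log2FC -1.33, common -1.10) and Nup155 (log2FC -1.24, common -1.04), all of the nuclear pore, and Syne2 (under median, log2FC -2.38, common -2.02) fell. Plpp7, a nuclear envelope protein of muscle, read 5.19, 5.22 and 5.19 on the myoblast arrays and 8.66 on each of the day 2 arrays (log2FC 3.46, common 3.59). It was the one rise.

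Genes of fatty acid uptake and oxidation rose more often than they fell. For this list 15 of 44 members tested rose (34.1%) and 4 fell (9.09%), beside 6.04% and 8.41% of all genes. Their median log2FC was 0.59 (deposited) and 0.83 (common). Cd36, the fatty acid transporter, read 3.18 on each of the myoblast arrays and 7.79 on each of the day 2 arrays (under median, log2FC 4.61, common 4.38). Acaa2, the thiolase of mitochondrial beta oxidation, read 6.95, 6.97 and 6.97 on the myoblast arrays and 9.46, 9.42 and 9.42 on the day 2 arrays (log2FC 2.47, common 2.71). Both rose on every day 2 array. Acadl (log2FC 1.34, common 1.5), Acadm (log2FC 1.32, common 1.48), Hadhb (log2FC 1.25, common 1.4), Hadha (log2FC 1.07, common 1.22), Etfb (log2FC 1.16, common 1.31) and Acads (log2FC 1.01, common 1.24), also of beta oxidation, rose by less. The call of Acads ended without myoblast replicate 1. Pdk2 (log2FC 2.02, common 2.26), which inhibits pyruvate dehydrogenase, Pnpla2 (log2FC 1.27, common 1.51), the triglyceride lipase, Mgll (under median, log2FC 1.78, common 1.73), Acsl6 (under median, log2FC 1.93, common 1.95) and Ucp3 (under median, log2FC 1.71, common 1.66) rose. Fabp5, a carrier related to Fabp3, read 7.70, 7.78 and 7.78 on the myoblast arrays and 4.50 on each of the day 2 arrays (log2FC -3.26, common -2.94). It fell, with Acsl5 (log2FC -2.11, common -1.83), Cpt1a (log2FC -1.79, common -1.65), the non-muscle carnitine palmitoyltransferase, and Plin2 (log2FC -1.10, common -1.0). Of the 49 genes of the list, 4 had no probe set of their own and 1 lay below the filter.

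Genes of nucleotide and folate synthesis fell where they were called, except for 2 muscle enzymes. In the list 2 of 40 members tested rose (5%) and 14 fell (35%), beside 6.04% and 8.41% of all genes. The falls include Tk1, one of the genes set aside above. Tk1, thymidine kinase, read 8.23, 8.40 and 8.48 on the myoblast arrays and 4.41, 4.47 and 4.41 on the day 2 arrays (log2FC -3.94, common -3.67). Tyms, thymidylate synthase, read 7.85, 7.93 and 7.97 on the myoblast arrays and 4.42, 4.25 and 4.42 on the day 2 arrays (log2FC -3.56, common -3.26). Each was lower on all day 2 arrays. Prps2 (log2FC -3.50, common -3.21), Dut (under median, log2FC -3.26, common -2.95), Dctd (log2FC -2.67, common -2.43), Dck (log2FC -2.51, common -2.22), Cad (log2FC -2.37, common -2.17), Umps (log2FC -1.74, common -1.60) and Pfas (log2FC -2.16, common -1.87) fell, as did the folate enzymes Mthfd1l (log2FC -2.71, common -2.44), Shmt1 (log2FC -2.43, common -2.06) and Mthfd1 (log2FC -1.72, common -1.58). The purine nucleotide cycle of muscle went the other way. Adssl1, the muscle adenylosuccinate synthase, read 7.24 on each of the myoblast arrays and 10.23 on each of the day 2 arrays (log2FC 3.00, common 3.26). It rose, as did Ampd1 (under median, log2FC 2.96, common 2.88), the muscle AMP deaminase, while Adss (log2FC -3.06, common -2.90), the other adenylosuccinate synthase, fell. Mthfd2 (log2FC -0.01, common 0.12), Odc1 (log2FC -0.82, common -0.71) and Phgdh (log2FC -0.32, common -0.14) were not called.

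In the list of amino acid transporters and the amino acid response 4 of 40 members tested rose and 1 fell, or 10% and 2.5% beside 6.04% and 8.41% of all genes. Slc1a5 (log2FC -1.60, common -1.36), a glutamine transporter, fell. Got1 (log2FC 1.46, common 1.63) and Bcat2 (log2FC 1.33, common 1.56), aminotransferases, Slc7a8 (low side, log2FC 1.71, common 1.57) and Vldlr (log2FC 1.63, common 1.79) rose, and Asns (log2FC 0.65, common 0.84), Slc7a5 (log2FC 0.10, common 0.20) and Atf4 (log2FC -0.01, common 0.09) were not called. As deposited 4 members were lower in place of 1.

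Antioxidant and metal handling genes changed in both directions, since 6 of 46 members tested rose (13%) and 9 fell (19.6%), beside 6.04% and 8.41% of all genes. Gclm, a subunit of the enzyme that limits glutathione synthesis, read 9.52, 9.67 and 9.64 on the myoblast arrays and 6.20 on each of the day 2 arrays (log2FC -3.41, common -3.21). Gclc (log2FC -1.45, common -1.28), its catalytic partner, fell too, with Srxn1 (log2FC -2.26, common -1.97), Txnrd1 (log2FC -1.29, common -1.18), Nqo1 (log2FC -1.34, common -1.14) and Hmox1 (log2FC -1.18, common -1.06), known targets of Nrf2. Nfe2l2 (log2FC -0.69, common -0.59), which encodes Nrf2, was lower by less than 2-fold. Prdx4, a peroxiredoxin, read 8.07, 8.07 and 8.15 on the myoblast arrays and 5.31 on each of the day 2 arrays (log2FC -2.79, common -2.49). It fell, as did Gsta4 (log2FC -2.03, common -1.89) and Ftl1 (log2FC -1.68, common -1.70), ferritin light chain. The rises included the metallothioneins Mt1 (log2FC 1.04, common 1.20) and Mt2 (log2FC 1.75, common 1.95), Tfrc (log2FC 1.25, common 1.44), the transferrin receptor, and Slc40a1 (under median, log2FC 1.59, common 1.55), the iron exporter, together with Sod2 (log2FC 1.32, common 1.48) and Selenow (log2FC 1.46, common 1.63).

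Adaptors of ubiquitin ligases known from muscle held the largest share of rises among the 29 lists. Its genes were chosen as known from muscle, with earlier results of these data known, so this direction is a description only. Of these 19 of 39 members tested rose and 0 fell, a share of 48.7% against 6.04% of all genes. At an unadjusted limma p under 0.05 with no size limit 30 were higher and 5 lower, while the stricter adjusted p alone passed for 80.2% of all genes. The list's median log2FC was 0.96 (deposited) and 1.03 (common). Asb2, a SOCS box protein, read 5.44 on each of the myoblast arrays and 9.48 on each of the day 2 arrays (log2FC 4.04, common 4.23). Klhl31, one of the kelch proteins, read 6.15, 6.15 and 6.09 on the myoblast arrays and 9.29 on each of the day 2 arrays (log2FC 3.16, common 3.39). Klhl41, a kelch protein of the sarcomere, read 7.92, 8.04 and 7.85 on the myoblast arrays and 10.96 on each of the day 2 arrays (log2FC 3.03, common 3.27). All 3 were higher on every day 2 array. Klhl30 (log2FC 2.94, common 3.18), Klhl13 (log2FC 2.96, common 3.23), Klhl40 (log2FC 2.41, common 2.58), a partner of nebulin, Fbxl22 (log2FC 3.06, common 3.08) and Neurl2 (log2FC 2.02, common 2.15) rose, and so did Fbxo40 (log2FC 2.65, common 2.79), Asb12 (low side, log2FC 2.94, common 2.85) and Asb14 (low side, log2FC 1.43, common 1.28). Trim63 (log2FC 2.55, common 2.62), MuRF1, rose, whereas Fbxo32 (log2FC 0.32, common 0.62), the other well known ligase of atrophy, was not called. Another probe set of Fem1a (log2FC 1.74, common 1.97) gave log2FC 0.50, common 0.40.

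In the list of small heat shock proteins and chaperones 10 of 35 members tested rose (28.6%) and 1 fell (2.86%), beside 6.04% and 8.41% of all genes. Hspb7, a small heat shock protein of heart and muscle, read 4.96 on each of the myoblast arrays and 8.70 on each of the day 2 arrays (log2FC 3.74, common 3.83). Hspb3, another small heat shock protein, read 4.83, 5.05 and 4.99 on the myoblast arrays and 8.53, 8.53 and 8.52 on the day 2 arrays (log2FC 3.57, common 3.65). Unc45b, the chaperone that folds muscle myosin, read 4.92, 5.25 and 5.07 on the myoblast arrays and 8.73 on each of the day 2 arrays (log2FC 3.65, common 3.76). All 3 rose, whereas Unc45a (log2FC -1.03, common -0.80), the widely expressed relative of Unc45b, was not called. Hspb2 (log2FC 3.00, common 3.21), Cryab (log2FC 1.66, common 1.86), Hspb8 (log2FC 1.28, common 1.47) and Dnaja4 (log2FC 1.4, common 1.65) rose. The small heat shock genes Hspb1 (log2FC 0.55, common 0.66) and Hspb6 (log2FC -0.16, common 0.15) were not called. The general chaperones Hspa8 (log2FC -0.11, common -0.08), Hspd1 (log2FC -1.04, common -0.91) and Cct5 (log2FC -0.14, common 0.03) were not called. Hsp90aa1 (log2FC -1.02, common -1.02) was the one fall, and that call ended with quantile normalization of the 6 arrays alone, with median centring and with the mean of its probe sets.

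Kinases and phosphatases known from muscle were nearly all higher or uncalled. Of these 25 of 54 members tested rose (46.3%) and 1 fell (1.85%), beside 6.04% and 8.41% of all genes. This list too was chosen with earlier results of these data known, so its direction is a description only. Prkaa2, a catalytic subunit of AMP-activated kinase, read 5.03 on each of the myoblast arrays and 8.67 on each of the day 2 arrays (log2FC 3.63, common 3.74). Prkag3, its muscle regulatory subunit, read 5.33 on each of the myoblast arrays and 8.58 on each of the day 2 arrays (log2FC 3.26, common 3.42). Both rose. Prkag1 (log2FC -0.22, common -0.13), a subunit found in most tissues, and Prkab2 (log2FC -0.01, common 0.24), another subunit, were not called. Mylk4 (log2FC 3.10, common 3.33), Srpk3 (log2FC 2.55, common 2.59), Ppp1r27 (log2FC 2.71, common 2.91), Arpp21 (log2FC 2.56, common 2.78), Camk2b (log2FC 2.04, common 2.07) and Prkcq (low side, log2FC 2.98, common 2.82) rose, as did Dusp27 (log2FC 2.14, common 2.37), Dusp3 (log2FC 2.06, common 2.30) and Alpk3 (log2FC 2.13, common 2.36). Akt2 (log2FC 1.31, common 1.51), the insulin-responsive Akt, rose while Akt1 (log2FC 0.73, common 0.88) did not reach 2-fold. Ppp1r3a, the muscle glycogen-targeting subunit of a protein phosphatase, read 2.65 on each of the myoblast arrays and 6.65 on each of the day 2 arrays (low side, log2FC 3.99, common 3.79). It rose, and its promoter is among those printed above. Pde4d (log2FC -1.79, common -1.54), a cAMP phosphodiesterase, fell.

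**Figure D3:**
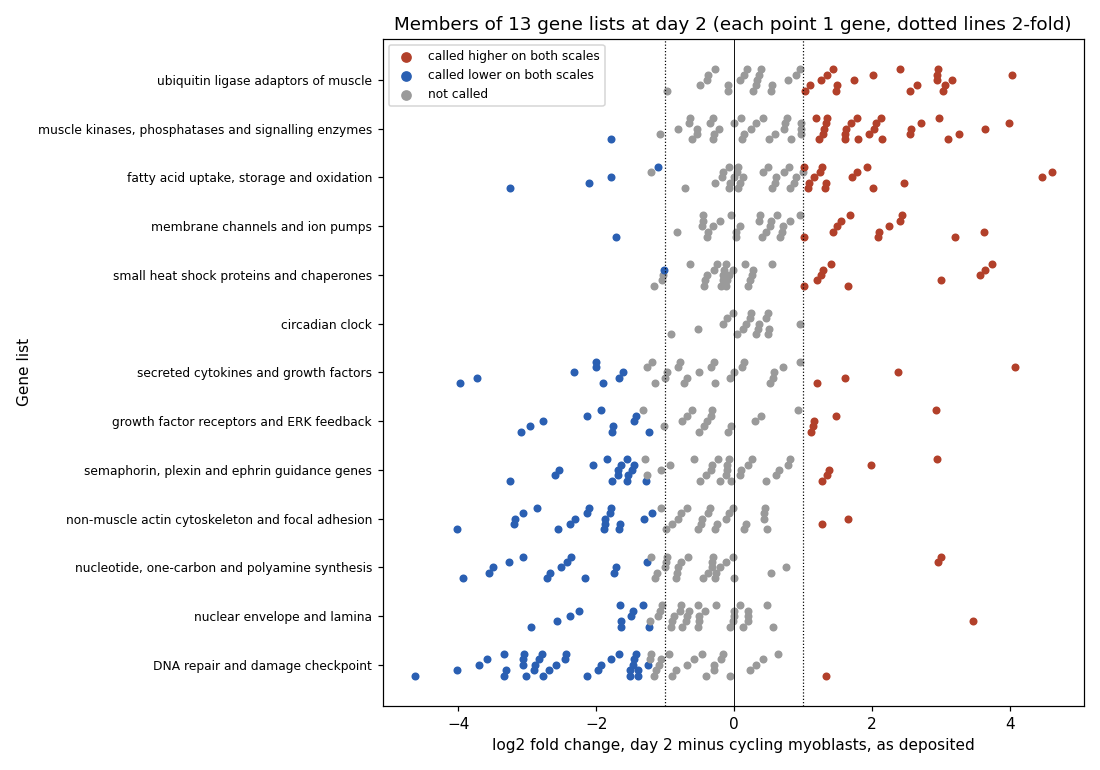
log2 fold change as deposited (x axis) of each tested member of 13 lists (rows). Red points were called higher on both scales, blue points lower, grey points were not called, and the dotted lines mark 2-fold, with all circadian genes grey and the DNA repair genes mostly blue.

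Nuclear receptors, transcription factors of which many are switched by hormones or lipids, rose where they were called, with 1 exception. The list also holds coregulators such as Ppargc1a. Of this list 7 of 30 members tested rose (23.3%) and 1 fell (3.33%), beside 6.04% and 8.41% of all genes. Rxrg, a retinoid X receptor, read 5.03, 5.12 and 5.03 on the myoblast arrays and 6.84 on each of the day 2 arrays (log2FC 1.78, common 1.94). With it Thra (log2FC 1.58, common 1.75), a thyroid hormone receptor, Nr3c1 (log2FC 1.14, common 1.39), the glucocorticoid receptor, Ppara (under median, log2FC 1.39, common 1.4), Esrrb (log2FC 1.37, common 1.49) and Esrrg (under median, log2FC 1.74, common 1.77) rose. Ppargc1a (log2FC 0.78, common 1.01) passed 2-fold on the common scale alone, and Esrra (log2FC 0.53, common 0.78) was not called. Nr4a2, an orphan receptor, read 7.79 on each of the myoblast arrays and 4.46 on each of the day 2 arrays (log2FC -3.32, common -3.02). It fell, while its relative Nr4a3 (low side, log2FC 2.68, common 2.62) rose. In the circadian list 0 of 18 members tested were called by limma at 2-fold on both scales, against 6.04% and 8.41% of all genes. At an unadjusted p under 0.05 with no size limit 11 were higher and 2 lower, while the stricter adjusted p alone passed for 80.2% of all genes. Nfil3 (log2FC 0.96, common 1.22) lay nearest, and 1 member was called on the common scale alone.

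RNA-binding proteins changed in both directions, and 6 of 37 members tested rose (16.2%) and 9 fell (24.3%), beside 6.04% and 8.41% of all genes. Ptbp1, a repressor of tissue-specific exons, read 9.46, 9.35 and 9.45 on the myoblast arrays and 7.37 on each of the day 2 arrays (log2FC -2.04, common -1.93). It fell, as did Ptbp3 (log2FC -1.85, common -1.73), Mbnl3 (under median, log2FC -2.55, common -2.26), Srsf1 (log2FC -1.55, common -1.43), Fmr1 (log2FC -2.51, common -2.30) and Zfp36l2 (log2FC -2.62, common -2.43). Rbfox1 (log2FC 2.31, common 2.36), a splicing factor of muscle and brain, Rbm38 (log2FC 1.79, common 2.01), Zfp36l1 (log2FC 1.85, common 2.04) and 3 of the 4 Cpeb genes, Cpeb2 (log2FC 2.47, common 2.61), Cpeb4 (log2FC 1.51, common 1.76) and Cpeb3 (low side, log2FC 1.64, common 1.55), rose. Mbnl1 (log2FC -0.57, common -0.45), Celf1 (log2FC 0.51, common 0.63) and Rbm24 (log2FC 0.71, common 0.87) were not called.

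Imprinted genes, expressed from 1 parental allele, had 4 rises and 4 falls among 28 tested, 14.3% each way beside 6.04% and 8.41% of all genes. Besides Mest, Ndn (log2FC -2.33, common -1.97), Plagl1 (log2FC -2.02, common -1.65) and Peg12 (log2FC -1.4, common -1.04) fell. Igf2, a growth factor of fetal muscle, read 10.46, 10.57 and 10.47 on the myoblast arrays and 11.64 on each of the day 2 arrays (log2FC 1.15, common 1.30). It rose, as did Cdkn1c (log2FC 1.44, common 1.66), a cell cycle inhibitor, Grb10 (under median, log2FC 1.87, common 1.81) and Gatm (log2FC 2.49, common 2.75), an enzyme of creatine synthesis. Peg3 (log2FC -0.52, common -0.36), Dlk1 (log2FC -0.22, common 0.12) and Meg3 (log2FC 0.46, common 0.46) were not called.

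DNA repair held the largest share of falls among the 29 lists, 58.9% against 8.41% of all genes, as 1 of 56 members tested rose and 33 fell. Chek1 and Neil3, which were among the genes set aside above, are counted here. No count was made without the set-aside genes. The median log2FC was -1.46 (deposited) and -1.24 (common). Chek1, a checkpoint kinase of replication stress, read 8.13 on each of the myoblast arrays and 4.11 on each of the day 2 arrays (under median, log2FC -4.02, common -3.77). Lig1, the ligase that joins Okazaki fragments, read 7.87, 7.80 and 7.77 on the myoblast arrays and 4.49, 4.49 and 4.53 on the day 2 arrays (log2FC -3.31, common -3.01). Topbp1, which activates the Atr kinase, read 8.99, 9.07 and 9.07 on the myoblast arrays and 6.25, 6.25 and 6.12 on the day 2 arrays (log2FC -2.83, common -2.66). Day 2 values lay below all myoblast values in each. Neil3 (low side, log2FC -4.64, common -4.37), a glycosylase, Brca1 (under median, log2FC -3.58, common -3.29), Brca2 (low side, log2FC -3.07, common -2.79), Fancd2 (low side, log2FC -3.34, common -3.05), Chek2 (under median, log2FC -3.35, common -3.05), Msh6 (log2FC -2.91, common -2.57) and Exo1 (under median, log2FC -3.05, common -2.77) fell. So did the damage kinases Atm (log2FC -1.42, common -1.12) and Atr (log2FC -1.46, common -1.10), while Prkdc (log2FC -0.90, common -0.51) was not called. Of genes of end joining and excision repair, Xrcc5 (log2FC -1.52, common -1.4) and Ercc1 (log2FC -1.45, common -1.33) fell and Xrcc6 (log2FC -0.29, common 0.00), Lig4 (log2FC -0.18, common 0.05), Lig3 (log2FC 0.32, common 0.60) and Xpc (log2FC 0.64, common 0.92) were not called. Parp3 (log2FC 1.33, common 1.59) was the one rise.

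In the p53 and apoptosis list 3 of 41 members tested rose and 4 fell, shares near the 6.04% and 8.41% of all genes. Casp8, the initiator caspase of death receptors, read 7.40 on each of the myoblast arrays and 3.90 on each of the day 2 arrays (under median, log2FC -3.51, common -3.21). With it Apaf1 (log2FC -1.41, common -1.12), the apoptosome scaffold, and Casp2 (log2FC -1.54, common -1.18) fell with Trp53inp1 (log2FC -1.49, common -1.36). Sesn1 (log2FC 1.86, common 2.07), Trp53inp2 (log2FC 1.39, common 1.65) and Bnip3 (log2FC 1.10, common 1.25) rose. Mdm2 (log2FC -0.64, common -0.52), Bcl2l1 (log2FC -0.52, common -0.36), Mcl1 (log2FC -0.64, common -0.55) and Casp9 (log2FC 0.09, common 0.35) were not called. As deposited 9 members were lower in place of 4. Of the 47 genes of the list, 6 had no probe set of their own.

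MicroRNA genes that were called had low values. In this list 4 of 31 members tested rose (12.9%) and 9 fell (29%), beside 6.04% and 8.41% of all genes. Mir206, whose mature seed is shown above, read 3.67, 3.74 and 3.67 on the myoblast arrays and 5.39, 5.33 and 5.39 on the day 2 arrays (under median, log2FC 1.68, common 1.65). On the common scale its mean was 3.67 in myoblasts, 5.32 after 2 days and 2.04 after 5. Mir133a-1 (low side, log2FC 1.84, common 1.77), Mir133a-2 (low side, log2FC 1.24, common 1.09) and Mir1a-1 (low side, log2FC 1.94, common 2.11), also muscle microRNA genes, rose from the low side. Mir221 read 5.33 on each of the myoblast arrays and 3.57 on each of the day 2 arrays (under median, log2FC -1.75, common -1.53). It fell, as did Mir29a (low side, log2FC -1.62, common -1.66), Mir15b (low side, log2FC -1.84, common -1.89) and Mir15a (under median, log2FC -1.17, common -1.10). The 5 members of the miR-17 cluster that were tested fell, namely Mir17 (low side, log2FC -1.10, common -1.19), Mir18 (under median, log2FC -1.19, common -1.07), Mir19a (low side, log2FC -1.05, common -1.16), Mir20a (low side, log2FC -1.35, common -1.30) and Mir19b-1 (low side, log2FC -1.83, common -1.79), whereas Mir92-1 of the same cluster had no probe set of its own and the host transcript Mir17hg (log2FC -0.48, common -0.52) was not called. Mir23a (log2FC -0.24, common 0.08), Mir27a (log2FC -0.27, common 0.04) and Mir24-2 (log2FC 0.16, common 0.46), of another cluster, were not called. With the filter at the 50th percentile 1 rose and 4 fell. Of the 56 genes of the list, 16 had no probe set of their own and 9 lay below the filter.

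**Figure D4:**
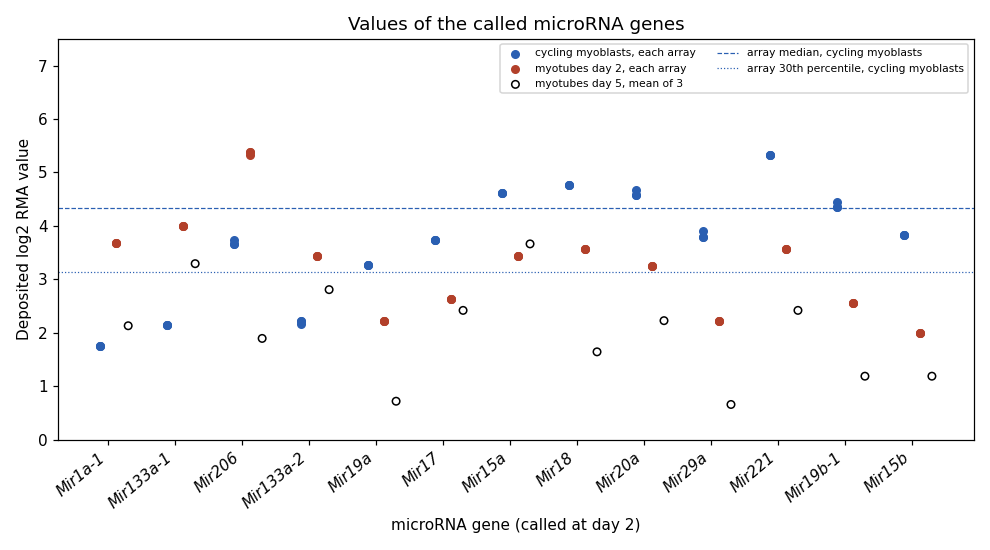
Deposited log2 values (y axis) of the 13 microRNA genes called at day 2 (x axis), with 1 point for each array. Blue lines mark the median and the 30th percentile of the myoblast arrays, and the lower level of most genes lies near or under them.

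Motifs were searched on both strands in the 300-base windows of the RefSeq promoter table, which reach from 250 bases before to 50 bases after a start. Of the genes tested 13007 had a window, among them 770 that rose and 1109 that fell. CAGCTG, which reads the same on both strands, was present in 21.2% of windows of genes that rose, in 16.5% of those that fell and in 16.3% of all. The MEF2 motif was in 5.19%, 1.44% and 1.86%, in that order. TTTNNCGC was in 5.45%, 14.0% and 7.51%, and TTTGAA, part of the CHR element of cell cycle genes, in 10.6%, 17.5% and 12.4%. CATTCC, the motif of TEAD factors, was in 14.8%, 12.5% and 12.7%. Without the sarcomere, triad, mitosis and replication genes that were set aside, CAGCTG was in 19.9% and MEF2 in 4.41% of 725 windows of genes that rose. Of 967 that fell, TTTNNCGC was in 12.6% and TTTGAA in 12.9%, the latter near the 12.4% of all. CAGCTG was in 17.0% of these 967, beside 16.3% of all. These shares are descriptions, and a match is not evidence of binding.

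In 9 pairs shown here, 1 gene rose while another of its family fell by day 2. They are not all such families, since Spry1 and Spry2, or Zfp36l1 and Zfp36l2, also split. The pairs named here were picked after their values were seen. Fabp3 rose and Fabp5 fell, Cav3 rose and Cav1 fell, and Cfl2 rose and Cfl1 fell. Adssl1, described above, rose, and Adss read 9.52, 9.52 and 9.51 on the myoblast arrays and 6.46 on each of the day 2 arrays. In the same way Ccn2, Tead4, Nr4a3, Erbb3 and Sema3c rose while Ccn1, Tead2, Nr4a2, Egfr and Sema3e fell. Values of 2 different genes are not comparable in level, so only the direction of each is given.

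**Figure D5:**
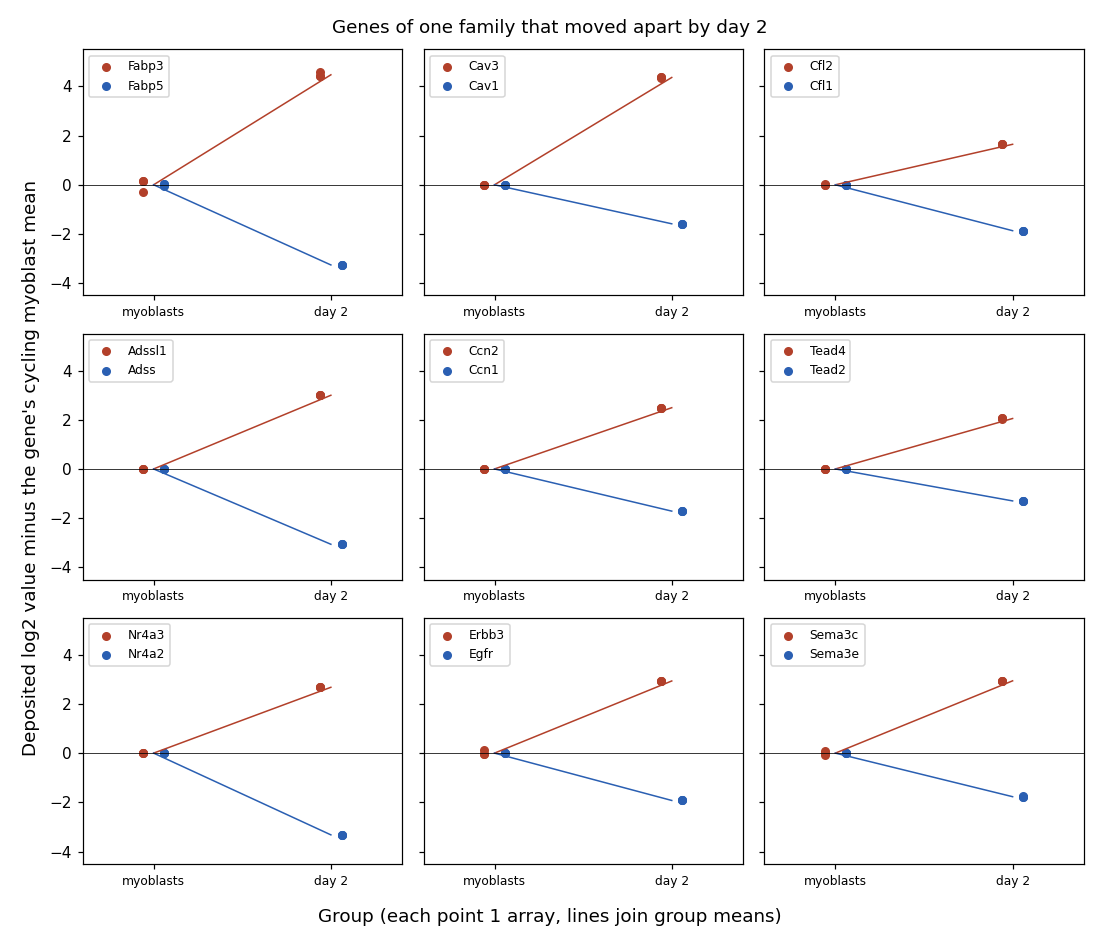
Deposited log2 value of each array minus the cycling myoblast mean of the same gene (y axis) in myoblasts and at day 2 (x axis), for 9 pairs of genes from one family. The gene in red rose and the gene in blue fell in every pair, and the 3 points of a group nearly coincide.

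Some genes that rose by day 2 stood closer to their myoblast than to their day 2 level at day 5. They were chosen for that pattern after their values were seen, so their levels are a description, given here as means of 3 arrays on the common scale. Ccn2 was at 4.71 in myoblasts, 7.34 after 2 days and 5.37 after 5. Fbxl22 was at 4.38 in myoblasts, 7.46 after 2 days and 5.49 after 5. The creatine enzyme Gatm was at 6.99 in myoblasts, 9.74 after 2 days and 7.61 after 5, and the kinase gene Mylk4 at 5.85 in myoblasts, 9.18 after 2 days and 7.18 after 5. All 4 had their highest level at day 2. In other genes the day 2 level was kept or exceeded. Fabp3 was at 5.13 in myoblasts, 9.84 after 2 days and 10.40 after 5, and Cd36 at 3.23 in myoblasts, 7.61 after 2 days and 9.04 after 5. The fall of Flna went on, with 10.44 in myoblasts, 7.48 after 2 days and 5.15 after 5.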

How the data were processed

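The authors' deposited values are log2 levels of 35556 probe sets of an Affymetrix mouse gene array on 9 arrays, 3 for each of cycling myoblasts, day 2 and day 5 myotubes. RMA made them, per the submitters' processing notes, for each replicate set, with no version named there. From the values, 47.9% of probe sets were equal on all 3 myoblast arrays and 60.2% at day 2, so the spread is understated and p-values are too small. Within-group correlations of arrays were 0.994 to 0.997 and those between groups 0.939 to 0.942, which describes these arrays and not their precision; 3 arrays a group limit it.

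Probe sets were named through the platform annotation: 21789 named 1 gene, 1621 several and 12146 none. The probe set with the highest mean stood for each of 19938 genes. Genes above the 30th percentile of their array on at least 3 arrays (16582) were tested with limma 3.58.1 in R 4.3.3, with lmFit and eBayes over 9 arrays and Benjamini-Hochberg adjustment over all tested genes, as deposited and after quantile normalization of the 9 arrays. The scripts were tested on simulated data with independent noise on each array. That simulation had no identical replicate values and no separate RMA runs, so it cannot show how reliable the calls are here. Sequences came from RefSeq tables (GRCm38.p6), with motifs searched and plots drawn in Python 3.11.15 and matplotlib 3.10.9.

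The members and the 29 gene lists, with 1056 distinct genes tested, were chosen with earlier results of these data known. The direction and rank of a list therefore support nothing by themselves. Of each list the called members with the largest change were named first, up to 6 in each direction, and other members only with values. The 20 largest rises and falls were taken outside the set-aside genes, whose list was completed after the values were seen. Same-numbered replicates did not deviate together: correlations of their deviations were 0.0090, 0.070 and 0.014. Alternatives changed the scale, filter, probe set rule, fit and arrays.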

Additional observations from a re-analysis of the deposited data

Results flagged for a closer look

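Some signal lay in probe sets that the comparison did not use. Of 7790 tested probe sets that name no gene, 146 were at least 2-fold higher at day 2 (1.87%) and 522 lower (6.70%), by limma and the same limits on both scales. Of 1108 that name several genes, 39 were higher (3.52%) and 144 lower (13%). These stand apart because no gene could be named for them.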

How the results depend on the processing

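The counts of 1002 rises and 1394 falls stayed within 1.5 times under all alternatives but one. Among genes whose replicates were unequal, 2131 in number, 192 rose and 194 fell, 9.01% and 9.10% of those, because fewer genes were tested. Leaving out 1 array at a time gave 967 to 1005 rises and 1382 to 1396 falls. With the replicate number as a block the fit gave 1002 and 1394, and the pairing check did not tie the numbers. Limma's treat test gave 879 and 1248, median centring 1060 and 1777, quantile normalization over 6 arrays 1017 and 1437, no filter 1018 and 1405, the 50th percentile filter 955 and 1352, and the mean of probe sets 997 and 1381.

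Of the 58 list counts, 53 moved by over 1.5 times with unequal replicates alone, where fewer genes were tested. Elsewhere, as deposited alone gave 4 amino acid, 2 nuclear receptor, 4 chaperone and 2 muscle kinase falls, and 9 p53 falls. Median centring gave 4 amino acid and 2 nuclear receptor falls. The common scale alone gave 5 immediate early, 4 Yap and Tead, 6 basement membrane and 1 circadian rise. Quantile normalization over 6 arrays gave 2 amino acid falls and 0 chaperone falls, and treat gave 0 chaperone falls, 1 collagen list rise and 1 tubulin rise. The mean of probe sets also gave 0 chaperone falls, the 50th percentile filter 1 microRNA rise and 4 falls, and leaving out myoblast replicate 1 gave 5 tubulin rises. For these 58 counts the cause was not tested. No result turned direction.

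Of the named genes, treat ended the most calls, among them Acads, Atr, Fbln5, Hmox1, Itga4, Lama5, Map1lc3a, Mt1, Nqo1, Nup43, Plin2 and Skil. Hsp90aa1, Insr and Tpm3 lost their call with the mean of probe sets, Mir19a with median centring, and Plin2 and Skil with quantile normalization over 6 arrays. Plin2 was lost without myoblast replicate 2, Tubb2b without day 2 replicate 1 or 2, and Trim55 without myoblast replicate 3. Replicates that share a processing step and values near background limit what these arrays can resolve.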
